A study of Mus musculus with 19 samples.

Results

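The insulin signalling and FOXO genes of liver were followed as 10 rows of the RNA-seq table, found by the symbols Insr, Irs1, Irs2, Pik3r1, Akt1, Akt2, Foxo1, Foxo3, Igfbp1 and Igfbp2. All 10 were among the 24054 gene symbols of the table, and all 10 passed the filter on low values that left 11580 genes for testing. Livers came from chow-fed C57BL/6 mice that all carried Raly flox/flox alleles and had all received an adeno-associated virus 4 weeks earlier. The 3 L-RalyKO mice received AAV8.TBG.Cre, in which the hepatocyte promoter TBG drives Cre recombinase, and the 3 controls received AAV8.TBG.GFP. The sample labels call these groups RALY-KO and wild type, but the controls carry the floxed alleles as well. The methods describe male mice unless otherwise specified. The age of these mice was not given in the sources used here. The study mentions fasting mice beside a PCR measurement of chow-fed L-RalyKO liver, and whether the livers of the RNA-seq were taken fed or fasted was not given in the sources used here. The labels number 3 replicates per group, taken here as separate mice, and name no litter or batch. The study describes its controls as littermates, and which mice shared a litter was not given in the sources used here.

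Insulin binds its receptor on hepatocytes, the receptor phosphorylates the substrates IRS1 and IRS2, and these recruit phosphatidylinositol 3-kinase, which leads to the activation of the kinases AKT1 and AKT2. AKT phosphorylates the forkhead factors FOXO1 and FOXO3, which then leave the nucleus. In fasting, when insulin is low, nuclear FOXO1 raises genes of glucose production and also Igfbp1 and Irs2. Much of this control acts on protein phosphorylation and location, which RNA levels do not measure.

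The opening question was whether hepatocyte loss of RALY, an RNA-binding protein of the hnRNP group, was accompanied by a different level of these transcripts. None of the 10 genes passed an adjusted p of 0.05 (0 of 10, limma with Benjamini-Hochberg adjustment over all 11580 genes), where 6.55% of all tested genes did. With edgeR's quasi-likelihood test, DESeq2 and limma voom on the recovered reads the count was 0 as well. At an unadjusted p under 0.05 there were 3 of the 10 (Irs1, Akt1 and Igfbp2), and 22.7% of all tested genes. The L-RalyKO and control livers did not overlap for 3 of the 10 (Akt1, Akt2 and Igfbp2), and for 28.1% of all tested genes. The shares for the 10 genes are close to those of the whole table. Their median log2 fold change was 0.03, against 0.0044 over all tested genes. In L-RalyKO liver 6 of the 10 genes had the higher mean and 4 the lower on the log2 scale, and 6 (Insr, Pik3r1, Akt1, Akt2, Foxo1 and Foxo3) had a 95% interval that stayed within a 1.25-fold difference in either direction.

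Values are reads of a gene relative to all reads of its library (CPM with TMM scaling), and are not divided by gene length unless stated. Between 28302983 and 38052705 reads per liver were counted on genes, and no member had fewer than 319 reads in any liver. Raly itself had values of 50.1, 48.6 and 46.8 in controls and of 6.34, 6.61 and 7.39 in L-RalyKO liver. Over all tested genes, 389 rose and 369 fell at adjusted p under 0.05 (limma), or 324 and 469 with scaling to the total count. Marker genes of hepatocytes were abundant in every liver, and their summed value was 85867 to 95301 in controls and 97713 to 98726 in L-RalyKO liver. Of these 8 markers, 3 rose (Hnf4a, Tdo2 and Hpd) and 0 fell, the same 3 with edgeR and voom, while DESeq2 also called Ahsg, Apoa1 and Cps1 and 6 were at an unadjusted p under 0.05 (limma). None of the tested markers of macrophages (7), endothelial cells (8), stellate cells and fibroblasts (8), cholangiocytes (3), lymphocytes (1) or erythroid cells (5) passed the test (limma, 2 at an unadjusted p under 0.05), and DESeq2 called 1 of them, the cholangiocyte marker Sox9, which edgeR and voom did not. Of 8 adipocyte markers, 2 were tested, of which Cfd fell and Adrb3 rose (Cfd not with edgeR or voom), and their summed value was 5.93 to 16.2 in controls and 5.06 to 6.74 in L-RalyKO liver. Slc7a10 and Tshr of that list had no read in any liver. Of 8 pancreas markers, 7 had no read in any liver. The summed value of the 7 cholangiocyte markers was 10.9 to 11.8 in controls and 13.1 to 14.1 in L-RalyKO liver, without overlap. The sums of the macrophage, endothelial, stellate and fibroblast, lymphocyte and erythroid markers overlapped. The part of these markers in the results below was not tested. In whole liver, fewer cells of a type and less RNA per cell cannot be told apart.

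Promoters of 3 members and of G6pc that carry a forkhead motif are shown, because FOXO1 binds such sites. For 9 of the 10 genes RefSeq promoters were at hand (15 promoters, sequence of GRCm38.p6), each with an exact match in the mouse build NCBIM37 (mm9), whose positions are given. The letters GTAAACA and CAAAACA were searched on both strands in the 300 bases from 250 before to 50 after the start site. At least 1 of them was found in 4 of the 15 promoters (26.7%), 1 each of Igfbp1, Irs1, Irs2 and Akt1, and in 9.64% of 32817 mouse promoters of the same length (GTAAACA in 3.65%, CAAAACA in 6.29%). CCAAT, the letters bound by NFY, a factor that the study examined with RALY, was found in 4 of the 15 (26.7%), 1 each of Akt2, Foxo1, Irs2 and Pik3r1, and in 37.4% of all promoters. These shares were not tested, and several genes have more than 1 promoter. Below are the 250 bases before the start site of the 3 members with CAAAACA, and of G6pc, the gene of the last step of glucose release, which is described further on. The capitals mark CAAAACA or its reverse complement TGTTTTG.

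Igfbp1 (chr11:7097540-7097789, + strand): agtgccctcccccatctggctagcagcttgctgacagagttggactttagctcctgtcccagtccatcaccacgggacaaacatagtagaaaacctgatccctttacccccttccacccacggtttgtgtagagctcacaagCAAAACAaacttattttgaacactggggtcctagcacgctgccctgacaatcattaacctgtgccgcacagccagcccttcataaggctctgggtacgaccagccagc

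Irs1 (chr1:82288015-82288264, - strand): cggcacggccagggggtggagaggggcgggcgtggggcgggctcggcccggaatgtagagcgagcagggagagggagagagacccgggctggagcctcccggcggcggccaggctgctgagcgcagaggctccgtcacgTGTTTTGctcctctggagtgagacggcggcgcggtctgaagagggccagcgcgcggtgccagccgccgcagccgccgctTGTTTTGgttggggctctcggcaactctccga

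Irs2 (chr8:11008930-11009179, - strand): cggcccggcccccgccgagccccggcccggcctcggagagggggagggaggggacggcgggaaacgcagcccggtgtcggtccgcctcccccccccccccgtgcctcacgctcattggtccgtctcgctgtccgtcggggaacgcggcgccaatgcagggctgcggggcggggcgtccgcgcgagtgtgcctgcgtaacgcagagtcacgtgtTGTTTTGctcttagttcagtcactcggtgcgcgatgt

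G6pc (chr11:101228780-101229029, + strand): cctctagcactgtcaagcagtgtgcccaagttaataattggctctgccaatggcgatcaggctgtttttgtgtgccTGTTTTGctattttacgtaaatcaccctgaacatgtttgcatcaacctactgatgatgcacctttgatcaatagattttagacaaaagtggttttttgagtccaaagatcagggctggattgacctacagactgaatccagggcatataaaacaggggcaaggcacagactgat

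In Igfbp1 the motif began 108 bases before the start site, in Irs2 37, in G6pc 174, and in Irs1 111 and 32. In Akt1, of 2 promoters, the one that starts upstream had TGTTTAC 161 bases before its start site. Among genes described further on, the windows of G6pc, Ccng2 and Sesn1 held 1 of the motifs and those of Pck1, Foxa2 and Socs3 none, and genes that rose are found on both sides. A match is a stretch of letters and was not tested as a binding site.

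**Figure D1:**
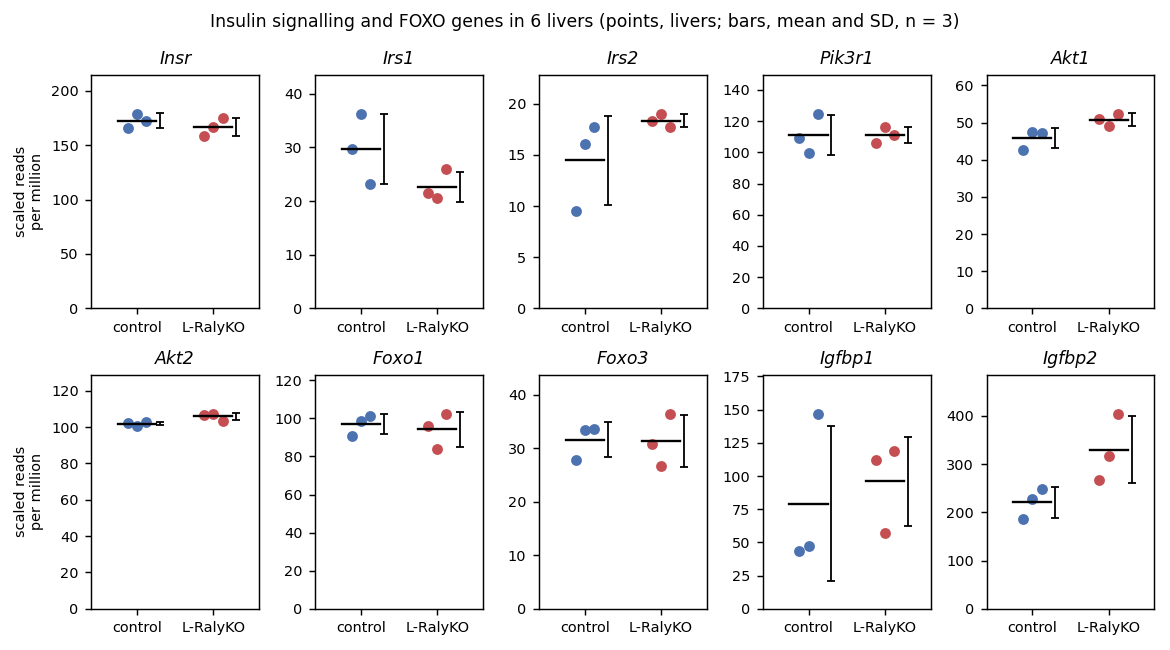
Values of the 10 genes in each liver (points; vertical axes in TMM-scaled CPM, each starting at 0), with the mean as a horizontal bar and the SD beside it, n = 3 livers per group. The groups are apart for Akt1, Akt2 and Igfbp2 and overlap for the others, and the control liver with 147 for Igfbp1 stands far above the other two.

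Insr (ENSMUSG00000005534.8, chr8:3150922-3279617, minus strand) encodes the insulin receptor. Its values were 165, 179 and 172 in controls and 158, 167 and 175 in L-RalyKO liver. The groups overlapped. On the log2 scale the difference (L-RalyKO minus control) was −0.05 ± 0.054 (SE), with a 95% interval from −0.17 to 0.08 and an adjusted p of 0.657 (limma), which leaves room for a fold between 0.888 and 1.05.

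Neither receptor substrate passed the test, and the fitted difference was negative for Irs1 and positive for Irs2. Irs1 (ENSMUSG00000055980.2, chr1:82229676-82287991, minus strand) had values of 29.7, 36.3 and 23.2 in controls and of 21.5, 20.5 and 25.9 in L-RalyKO liver. The second control was the highest, and the third control lay inside the L-RalyKO range. Irs1 thus differed by −0.37 ± 0.15 (SE) on the log2 scale, with a 95% interval from −0.70 to −0.03 and an adjusted p of 0.188 (limma). Without the third control it became −0.53 and the adjusted p 0.0378, and without the second control they were −0.22 and 0.393 (limma). Irs2 (ENSMUSG00000038894.6, chr8:10986980-11008458, minus strand), the substrate that FOXO1 raises in fasting, had values of 9.51, 16.1 and 17.7 in controls and of 18.3, 19.0 and 17.7 in L-RalyKO liver. The first control was low, and the lowest L-RalyKO liver and the highest control were nearly equal (17.708 and 17.733), and with scaling to the total count their order turned (17.686 and 17.667). Irs2 differed by 0.37 ± 0.19 (SE) on the log2 scale, with a 95% interval from −0.06 to 0.79 and an adjusted p of 0.283 (limma), and by 0.11 without the first control. Per kilobase of exon, Irs1 made up 57.9%, 49.8% and 36.6% of the sum of both substrates in controls and 34.1%, 32.2% and 39.2% in L-RalyKO liver, a share that scaling of the library cannot move. The mean share was 48.1 ± 10.8% in controls and 35.1 ± 3.61% in L-RalyKO liver (SD, n = 3 each), but the groups overlapped (two-sided exact permutation test, p = 0.2, and 0.533 after adjustment over the 4 family shares computed). In GENCODE vM1, 30.9% of the exon bases of Irs1 are shared with Gm9747 on the other strand and 4.03% of those of Irs2 with 9530052E02Rik. Whether the reads were counted by strand is not given in the sources used here, so that reads of these partners could be included.

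Pik3r1 (ENSMUSG00000041417.8, chr13:102450716-102538172, minus strand) encodes p85 alpha, the main regulatory subunit of phosphatidylinositol 3-kinase. Controls had 109, 99.4 and 125 and L-RalyKO livers 106, 116 and 111, all of the latter inside the control range. The difference on the log2 scale was 0.0052 ± 0.081 (SE), with a 95% interval from −0.18 to 0.19 and an adjusted p of 0.978 (limma), and its sign depended on the scaling and on single livers. Pik3r1 made up 70.1 ± 2.52% of the 3 regulatory genes Pik3r1, Pik3r2 and Pik3r3 per kilobase in controls and 70.7 ± 1.23% in L-RalyKO liver (SD, n = 3 each).

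Both AKT genes were slightly higher in every L-RalyKO liver than in every control, but with scaling to the total count the groups overlapped for Akt2 (102 to 105 in controls and 103 to 107 in L-RalyKO liver) and stayed apart for Akt1. Akt1 (ENSMUSG00000001729.7, chr12:113892032-113913095, minus strand) had values of 42.7, 47.4 and 47.2 in controls and of 50.9, 48.9 and 52.4 in L-RalyKO liver. The increment on the log2 scale was 0.15 ± 0.058 (SE), with a 95% interval from 0.01 to 0.28 and an adjusted p of 0.179 (limma). Akt2 (ENSMUSG00000004056.8, chr7:28376571-28425845, plus strand), the form on which insulin action in liver mainly depends, had 102, 101 and 103 in controls and 107, 107 and 103 in L-RalyKO liver. For Akt2 it was 0.06 ± 0.043 (SE), with a 95% interval from −0.04 to 0.15 and an adjusted p of 0.491 (limma). Akt2 varied little between livers, and only 0.82% of tested genes had a smaller standard deviation within groups. For both genes the two-sided exact permutation test gave p = 0.1, the smallest that 3 livers against 3 allow. Akt1 made up 43.9 ± 1.53% of the sum of Akt1 and Akt2 per kilobase in controls and 45.5 ± 1.31% in L-RalyKO liver (SD, n = 3 each, two-sided exact permutation test, p = 0.3).

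Foxo1 (ENSMUSG00000044167.5, chr3:52072259-52154031, plus strand) had values of 91.0, 98.5 and 101 in controls and of 96.2, 84.1 and 102 in L-RalyKO liver. The groups overlapped, with the second L-RalyKO liver lowest. Foxo1 differed by −0.04 ± 0.077 (SE) on the log2 scale, with a 95% interval from −0.22 to 0.13 and an adjusted p of 0.787 (limma), and its sign turned without the second L-RalyKO liver (0.035). Foxo3 (ENSMUSG00000048756.4, chr10:41901647-41996561, minus strand) had 27.7, 33.4 and 33.6 in controls and 30.8, 26.7 and 36.4 in L-RalyKO liver, a wider range than that of the controls. Foxo3 differed by −0.02 ± 0.11 (SE), with a 95% interval from −0.28 to 0.24 and an adjusted p of 0.946 (limma). Foxo1 shares 12.1% of its exon bases with RP24-337A16.1 on the other strand. Per kilobase, Foxo1 made up 57.6 ± 0.618% of the 3 genes Foxo1, Foxo3 and Foxo4 in controls and 56.4 ± 2.04% in L-RalyKO liver (SD, n = 3 each).

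Igfbp1 and Igfbp2 encode secreted proteins that bind insulin-like growth factors, and both are lowered by insulin. Igfbp1 (ENSMUSG00000020429.7, chr11:7097785-7102549, plus strand) had values of 43.8, 47.0 and 147 in controls and of 112, 57.1 and 119 in L-RalyKO liver. The highest of the 6 livers was a control, and within each group the values spread over more than 2-fold. The log2 difference of 0.44 ± 0.45 (SE, adjusted p = 0.617, limma) had a 95% interval from −0.58 to 1.45, that is from a fold of 0.668 to one of 2.74, so that the data cannot place the group difference. Of all tested genes, 99.8% had a smaller standard deviation within groups on the log2 scale (0.80 for Igfbp1, median 0.094). Without the third control the log2 fold change was 0.99 (adjusted p = 0.077, limma), without the first 0.13 and without the second 0.18. With edgeR's quasi-likelihood test and with DESeq2, which compare means of reads, it was 0.27 in each.

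Igfbp2 (ENSMUSG00000039323.11, chr1:72871077-72899048, plus strand) had the largest difference of the 10 genes in the fit on all livers, while that of Igfbp1 was larger without the third control (0.99 against 0.66) or the second L-RalyKO liver (0.77 against 0.58). Values were 185, 229 and 249 in controls and 268, 317 and 405 in L-RalyKO liver. Every L-RalyKO liver was above every control (two-sided exact permutation test, p = 0.1). The mean was 221 ± 32.3 in controls and 330 ± 69.1 in L-RalyKO liver (SD, n = 3 each). The fitted difference was 1.48-fold, or 0.57 ± 0.15 (SE) on the log2 scale with a 95% interval from 0.22 to 0.91, and its adjusted p of 0.0616 (limma) was just above the threshold. Without the first L-RalyKO liver the log2 fold change was 0.71 and the adjusted p 0.0463, and without the third L-RalyKO liver they were 0.41 and 0.126 (limma). Among all tested genes, Ctdspl2 (Pearson r = 0.993), Zbtb10 (0.990) and Esr1 (0.988) followed Igfbp2 most closely over the 6 livers on the log2 scale, which is a description of 6 points that fall into 2 groups.

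**Figure D2:**
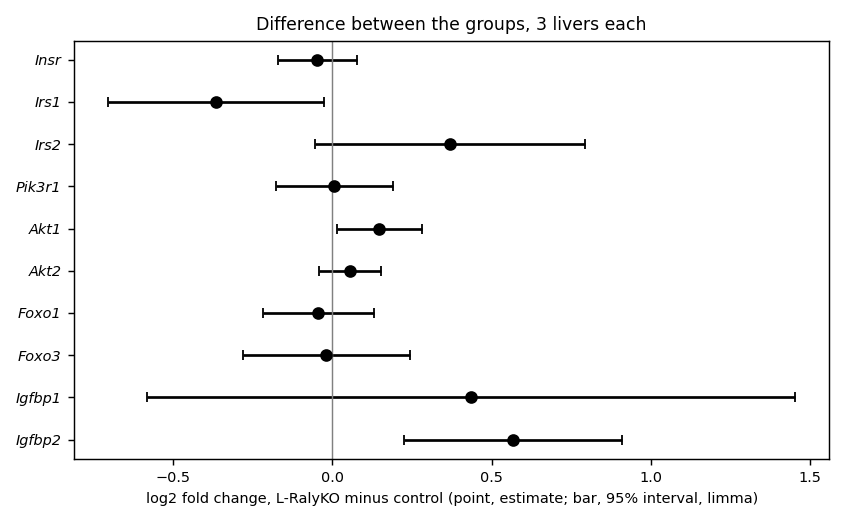
Log2 fold change of each gene, L-RalyKO minus control (points), with the 95% interval from limma (bars), 3 livers per group. The intervals of Insr, Pik3r1, Akt1, Akt2, Foxo1 and Foxo3 are narrow, that of Igfbp1 is the widest, and those of Irs1, Akt1 and Igfbp2 leave out 0 before adjustment.

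Levels were compared between genes after division by exon length. In controls Igfbp2 was the highest, at 120 ± 17.5 CPM per kilobase, followed by Igfbp1 at 52.0 ± 38.4 (SD, n = 3). Insr (17.8 ± 0.707), Foxo1 (17.5 ± 0.970), Pik3r1 (15.0 ± 1.73) and Akt2 (14.3 ± 0.126) came next, and each neighbouring pair of these 4 had overlapping ranges over the control livers. Akt1 (11.2 ± 0.653) lay below Akt2 without overlap. Foxo3 (4.38 ± 0.463), Irs2 (3.59 ± 1.08) and Irs1 (3.25 ± 0.713) were the lowest, and neighbours among them overlapped. In L-RalyKO liver the order by mean was the same except that Irs2 (4.56) was above Foxo3 (4.34). The ranges of Irs2 and Irs1 overlapped in controls and were apart in L-RalyKO liver (4.40 to 4.73 against 2.24 to 2.83).

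**Figure D3:**
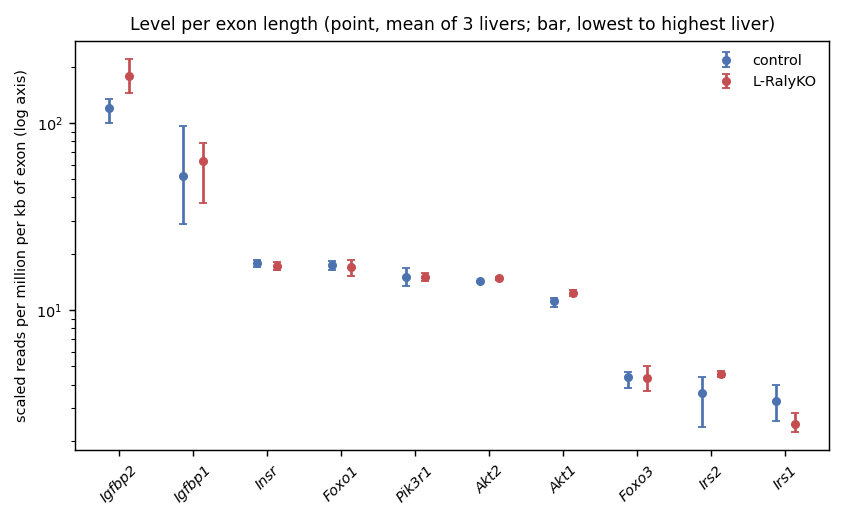
Level per exon length on a log axis, in CPM (TMM-scaled) per kilobase (point, mean of 3 livers; bar, lowest to highest liver; blue, control; red, L-RalyKO). The binding protein genes lie highest and the substrates and Foxo3 lowest, and the bars of Irs1 and Irs2 overlap in controls only.

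The other genes of the pathway were taken from 8 lists written from general knowledge, 137 genes without the 10, of which 123 were tested. Of these, 14 passed an adjusted p of 0.05 (6 rose and 8 fell, limma), or 11.4%, beside the 6.55% of all tested genes. Without the list of genes that insulin raises, written with the fall of fatty acid synthesis genes known, 8 of 110 passed, or 7.27%. The median log2 fold change was 0.02 over the 123 genes and 0.03 over the 110. Of 6 tested subunits of phosphatidylinositol 3-kinase and 23 downstream kinases and mTOR components 0 passed the test (2 and 6 at an unadjusted p under 0.05), as did 0 of 7 genes of the IGF axis (3 at unadjusted p under 0.05), where 22.7% of all tested genes were under that p. Of the 23 downstream kinases edgeR and voom called 1 (Sgk2) and DESeq2 3 (Sgk1, Sgk2 and Prkcz), and of the subunits and the IGF axis each of these tools called 0. Over all lists edgeR and voom called 14 genes each and DESeq2 25. Of all 11580 tested genes edgeR called 783, voom 736 and DESeq2 1088.

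Of 11 tested receptors and adaptors 1 passed (9.09%, beside 6.55% of all tested genes), the exchange factor gene Sos1, which links receptors to RAS. Sos1 had values of 53.1, 52.4 and 55.2 in controls and of 45.8, 45.5 and 44.8 in L-RalyKO liver. The fall was −0.23 ± 0.047 (SE) on the log2 scale (adjusted p = 0.024, limma). Of 23 tested inhibitors 2 passed (8.70%, near the share of all tested genes) and both rose. Socs3, which encodes a suppressor of cytokine signalling that also binds the insulin receptor, had 2.15, 2.59 and 3.54 in controls and 13.6, 12.3 and 5.18 in L-RalyKO liver. This was a log2 rise of 1.51 ± 0.30 (SE, adjusted p = 0.0214, limma), with the third L-RalyKO liver nearest to the controls. Trib1, which encodes a pseudokinase of the tribbles family, had 49.1, 42.6 and 60.7 in controls and 85.8, 89.6 and 65.9 in L-RalyKO liver (log2 fold change 0.66, adjusted p = 0.0329, limma). The calls of Socs3 and Trib1 were lost with edgeR's quasi-likelihood test (adjusted p = 0.0782 and 0.0789), that of Socs3 also with voom, while edgeR and DESeq2 called Inppl1, a lipid phosphatase gene of the list, and both were lost without the first or second liver of either group (adjusted p up to 0.0776 and 0.109, limma). The call of Sos1 was lost without the first control or any 1 of the L-RalyKO livers (adjusted p up to 0.0791, limma). It was also lost without an intensity trend (adjusted p = 0.055, limma), and that of Socs3 when every gene with a read was tested (0.055). Of 16 alternative fits, 5 ended the call of Sos1, 7 that of Socs3 and 8 that of Trib1.

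Of 17 tested FOXO genes and partners, 1 passed (5.88%, beside 6.55% of all tested genes). Foxa2, the gene of a forkhead factor of hepatocytes that insulin also regulates, had values of 13.3, 13.9 and 16.7 in controls and of 33.0, 28.9 and 21.3 in L-RalyKO liver. The log2 rise was 0.86 ± 0.15 (SE, adjusted p = 0.0126, limma, and 0.0501 without the first control). Its relative Foxa1, named after its values were seen, had a log2 fold change of 0.43 and an adjusted p of 0.055 (limma), and was called by edgeR and DESeq2.

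Among genes that FOXO factors are known to raise, 5 of 26 passed (19.2%, limma), beside 6.55% of all tested genes. Of these, Pck1, Ccng2, Sesn1 and Trib1 rose and G6pc fell. On the log2 scale 19 of the 26 had a higher mean in L-RalyKO liver and 7 a lower. At an unadjusted p under 0.05 (limma) were 14 of the 26, and 22.7% of all tested genes. DESeq2 called 10 (8 rose and 2 fell), edgeR 4 and voom 5. Over all 11580 tested genes DESeq2 called 1088, edgeR 783 and voom 736. The median log2 fold change of the list was 0.15, beside 0.0044 over all tested genes. Pck1, which encodes the enzyme that commits to glucose production, had values of 2993, 2937 and 3625 in controls and of 5401, 5327 and 5616 in L-RalyKO liver. This was a log2 rise of 0.78 ± 0.093 (SE, adjusted p = 0.00312, limma). G6pc, which encodes glucose-6-phosphatase, had 1061, 1017 and 893 in controls and 586, 610 and 756 in L-RalyKO liver. On the log2 scale G6pc differed by −0.61 ± 0.10 (SE, adjusted p = 0.0125, limma). The pair of glucose production genes thus differed in direction, each without overlap of the groups. Ccng2, the gene of an atypical cyclin, had 11.8, 11.2 and 11.8 in controls and 17.2, 15.8 and 17.2 in L-RalyKO liver (log2 fold change 0.49, adjusted p = 0.00472, limma). Sesn1, a stress-induced inhibitor of mTORC1, had 9.75, 9.99 and 9.54 in controls and 13.1, 12.9 and 14.1 in L-RalyKO liver (log2 fold change 0.41, adjusted p = 0.00992, limma). The calls of Pck1, G6pc, Ccng2 and Sesn1 were kept in all 16 alternative fits.

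Genes that insulin is known to raise in liver were mostly lower, in 11 of 13 tested. At adjusted p under 0.05, 6 fell and 0 rose (limma), and the median of the 13 log2 fold change was −0.40. The list is largely one of fatty acid synthesis, whose fall in these livers was known when the list was written, so that it is no independent evidence of direction. Srebf1, the gene of the factor through which insulin raises fatty acid synthesis, had values of 323, 299 and 312 in controls and of 191, 245 and 166 in L-RalyKO liver (log2 fold change −0.65, adjusted p = 0.0173, limma). The others were Acly (−0.56, adjusted p = 0.00365), which makes cytosolic acetyl-CoA, Elovl6 (−0.62, 0.00527), a fatty acid elongase, and Acaca (−0.30, 0.0264), the first committed enzyme of fatty acid synthesis (limma). Outside the rule for named genes, Fasn (−0.50, 0.0445), fatty acid synthase, and Gpam (−0.40, 0.0474), a glycerol-3-phosphate acyltransferase, were named to complete the count. With edgeR's quasi-likelihood test Fasn (adjusted p = 0.0675) and Gpam (0.055) were not past the threshold. In all edgeR called 5 of the list and DESeq2 7, both with Mlxipl added, and voom called the same 6 as limma. Leaving out single livers ended the call for Srebf1 without the first control or first L-RalyKO liver (adjusted p up to 0.0649), for Acaca without the first or second control or the first or the third L-RalyKO liver (up to 0.0999), and for Fasn and Gpam without any 1 liver other than the third control (up to 0.116 and 0.125, limma).

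**Figure D4:**
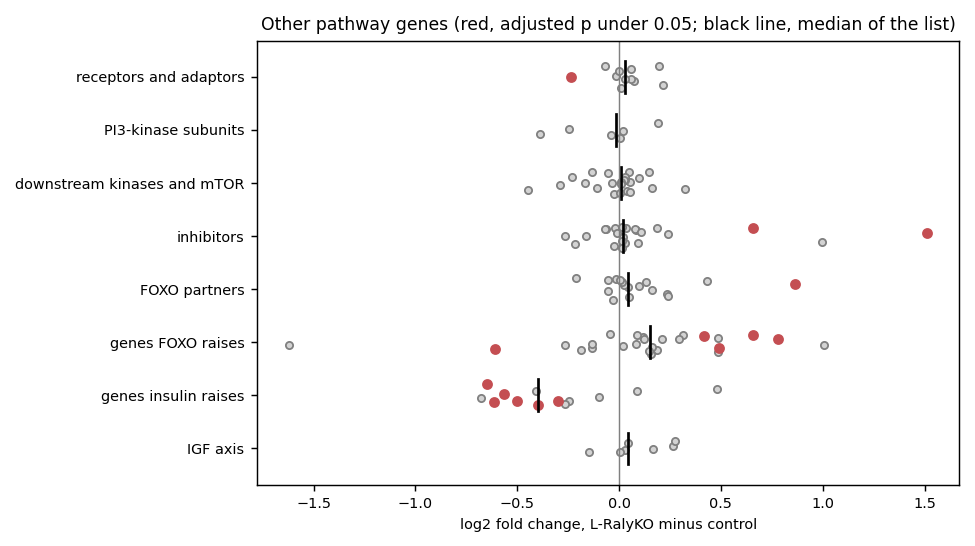
Log2 fold change (horizontal axis, L-RalyKO minus control) of every tested gene in the 8 lists; red points have an adjusted p under 0.05 (limma), grey points do not, and black lines are list medians. A gene in more than 1 list is drawn in each, and red points are 5 of 26 among genes that FOXO raises, 6 of 13 among those that insulin raises, and 0 to 2 in each other list. The lists were not tested against each other.

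**Figure D5:**
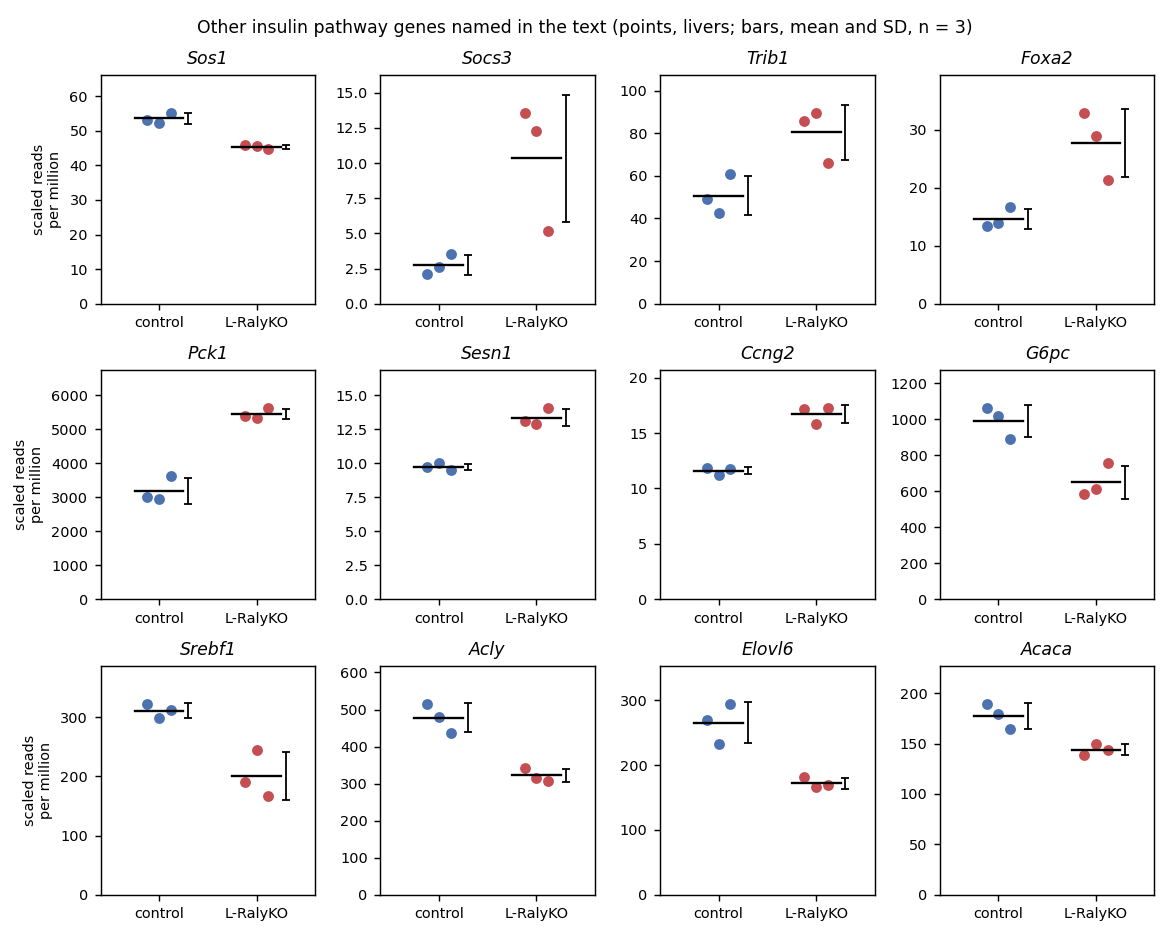
Values in each liver (points; TMM-scaled CPM, axes from 0) of the 12 pathway genes that the naming rule gave, with the mean as a horizontal bar and the SD beside it, n = 3. The groups are apart in all 12, and Sos1, G6pc, Srebf1, Acly, Elovl6 and Acaca are the ones that are lower in L-RalyKO liver.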

How the data were processed

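RNA-seq of 6 livers (3 L-RalyKO, 3 controls) was used out of 19 samples, and the ATAC-seq and ChIP-seq were not used here. The study's RNA-seq figure states more livers per group than the 3 that were available here. The values that the authors deposited are a signal, namely reads per gene divided by the effective size of each library, so that they are CPM with a scaling factor. The methods give KAPA stranded paired-end libraries, TopHat on mm9 and FPKM from Cufflinks (2.0.2 per the submitters' processing notes). The counter behind the deposited signal is not given in the sources used here. In each column 100% of values were whole multiples of the value of 1 read (within 0.01 of a read), and the scaling equals edgeR's TMM factors. Columns were matched to mice by virus and replicate number. A chi-square of the reads, divided by its degrees of freedom, was 13.3 to 89.3 between livers of a group, so that none was a duplicate. Positions and exon lengths (union of exons) are from GENCODE vM1 on NCBIM37.

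Groups were compared with limma 3.58.1 (R 4.3.3, with a trend of variance on level) on log2(value + 1) for the 11580 genes whose mean value was 1 or more, and p values were adjusted over all of them (Benjamini-Hochberg). Fold changes on this scale understate changes of low genes. Alternatives were edgeR 4.0.16 (quasi-likelihood), DESeq2 1.42.0 and limma voom on recovered reads, 2 other scalings, no trend, a pseudocount of 0.1, 2 other filters, a replicate block and leaving out each liver. The code was tested on simulated data. Some genes of the lists are counted but not reported by name here. The members and lists were chosen with earlier results of these data known. Named were the members, Raly, in each list the genes at adjusted p under 0.05 (at most 4, by p) and the 3 genes most like the member with the largest change. Precision rests on 3 mice per group.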

Additional observations from a re-analysis of the deposited data

How the results depend on the processing

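The count of members at adjusted p under 0.05, 0, stayed 0 in 9 of the 10 other fits that used all livers, and it was 1 with the replicate block, where Igfbp2 had an adjusted p of 0.0052 (limma). Deviations of same-numbered livers from their group means had correlations of 0.066, −0.024 and 0.020, and those of other-numbered livers ran from −0.088 to 0.060. Not every liver correlated best with its own number. Whether the numbers pair the mice, for example by litter, is not given in the sources used here. Correlations over all genes cannot decide it. With the block, 704 genes of the table were called. Leaving out each liver gave 0 to 1 members. The 758 genes of the table became 484 when every gene with a read was tested, 17216 genes in all, and 332 to 813 without single livers. The 14 other pathway genes became 25 with DESeq2, 9 without an intensity trend (the cause was not tested), 19 with the block and 6 to 20 without single livers. Of 160 values of members under alternatives, 147 kept direction and side of the threshold. Pik3r1 turned to −0.0021 with edgeR, −0.0042 with DESeq2 and −0.029 with total count scaling. Without single livers it ran from −0.072 to 0.091, Foxo1 from −0.11 to 0.035 and Foxo3 from −0.13 to 0.086. Of 224 values of the 14 called pathway genes 45 lost the call and 0 changed sign.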

Other observations

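The third control liver stood apart from the other controls in several genes of the lists, all named after their values were seen. Besides Igfbp1 (147, against 43.8 and 47.0 in the other controls), Socs2, a suppressor of growth hormone signalling, had 16.0 there and 5.01 and 4.31 in the others, with 13.3 to 17.1 in L-RalyKO liver. Bcl6, a transcriptional repressor, had 13.9 there and 59.3 and 48.2 in the others, with 8.99 to 12.6 in L-RalyKO liver. Its log2 fold change was −1.62 (SE 0.44), with an adjusted p of 0.0654 (limma), and it was called with DESeq2 but not with edgeR or voom. Cdkn1a, a cell cycle inhibitor, had 10.8 there, 5.99 and 2.49 in the others and 11.4 to 13.1 in L-RalyKO liver. In these 3 genes the third control lay nearest to the L-RalyKO livers. Ppp1r3c, a glycogen-targeting subunit of protein phosphatase 1, had 140 there, 57.1 and 37.8 in the others and 30.8 to 62.8 in L-RalyKO liver, so that here it lay farthest from them. Over the whole table, however, control 1 was the control least like the others. The chi-square of the reads per degree of freedom was 75.45 and 89.26 for control 1 against controls 2 and 3. Between controls 2 and 3 it was 19.23. Single genes also set control 1 apart, such as Irs2 (9.51, against 16.1 and 17.7) and Cfd (12.6, against 2.74 and 3.46).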
